A study of Mus musculus with 12 samples.

Results

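Lamina excision was compared with soft-tissue surgery alone in mouse scar tissue taken at day 7, with 4 Laminectomy mice against 4 SHAM mice. These were 8 of the 12 mice sequenced. The comparison covered every gene of the deposited table, and 14765 of its 18996 genes had enough counts to be tested. The mice were BALB/c, 5 to 7 weeks old, and the study used males and females without giving the sex of each animal. SHAM mice lost soft tissue beside the spine and kept their laminae. Laminectomy mice also lost the laminae and spinous processes from T12 to L2, down to the dura. Tissue of both groups was described as soft and scar tissue from beside the spine. The 4 mice in the No operation group, with soft tissue and no surgery, served here to show where the level of a gene lay before any wound. The deposited description gives 4 replicates a group of which 3 were selected by the authors, and the methods give 3 mice a group, so all 4 were used here. Whole tissue was sequenced, so fewer cells of a type and less RNA per cell cannot be told apart.

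Removing a lamina cuts bone and opens its marrow, whereas removing soft tissue beside the spine does not. Bone repairs through osteoblasts, which lay down and mineralise collagen, through cartilage that is later replaced by bone, and through osteoclasts, macrophage relatives that dissolve mineral. In the same days a wound holds macrophages and neutrophils that release interleukins and chemokines, cells answering interferon, dividing stromal cells, and muscle fibres under repair whose mitochondria are rich in respiratory enzymes.

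SHAM 1 and Laminectomy 1 stood apart from the other mice of their groups, and the values that follow give them by number. On the first principal component of the 8 libraries (44.5% of the variance), SHAM 1 scored −87.5, the other SHAM mice −20.8 to −1.87 and the Laminectomy mice 18.5 to 50.8. Laminectomy 1 scored 61.5 on the second component (22.3% of the variance), where no other mouse exceeded 15.2. Libraries held 16920282 to 18077868 counts, and the biological coefficient of variation was 28.3%. SHAM 1 held almost no transcripts of regenerating muscle: the 13 listed genes summed to 11.2 CPM (counts scaled to effective library size) there and to 1518 to 2589 CPM in the other 7 operated mice. Mature muscle fibre genes were lowest in SHAM 1, at a sum of 2874 CPM, and in Laminectomy 1, at 4263 CPM, against 8516 to 17721 CPM elsewhere.

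No gene was called different between Laminectomy and SHAM scar at an adjusted p below 0.05 with an absolute log2 fold change above 0.5 (0 of 14765, 0%), in the quasi-likelihood test of edgeR after Benjamini-Hochberg adjustment. The smallest adjusted p was 0.0698. At an unadjusted p below 0.05 the test gave 1026 genes higher in Laminectomy scar (6.95% of those tested) and 1333 lower (9.03%), and these became 673 without Laminectomy 2 and 773 without SHAM 1. All 4 Laminectomy mice lay above all 4 SHAM mice in 746 genes (5.05%) and below them in 748 (5.07%), and for such a gene the two-sided exact permutation test gives p = 0.0286, the smallest that 4 against 4 allow. DESeq2 on the same counts called 337 genes higher (2.11% of 15997) and 359 lower (2.24%). Of its 696 calls, 611 had an unadjusted p below 0.05 in edgeR. The calls therefore rested on the choice of tool, and the gene groups below are described by their counts beside those of all genes tested. Over all genes tested the median log2 fold change was 0.0037. Values are given as CPM for mice 1, 2, 3 and 4 in that order.

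The 10 genes of lowest p in each direction with at least 10 CPM and no overlap had edgeR adjusted p values of 0.0698 to 0.0978, and all 20 passed in DESeq2, at adjusted p values of 3.95e-06 to 0.000391. They were picked by p from the same counts, so the DESeq2 values give no independent support. Higher in Laminectomy scar were *Hoxb9*, a homeobox gene of trunk position, *Edil3*, *Serpine2*, *Abcb4*, *Ank*, *Alpl*, *Smpd3*, *Pappa*, *Foxc1* and *Slc29a1*. *Hoxb9* was at 2.25, 4.28, 4.18 and 5.71 CPM in SHAM and at 19.9, 18.1, 13.7 and 10.8 CPM in Laminectomy mice (log2 fold change 1.93 ± 0.30 (SE), edgeR adjusted p = 0.0698, gene 15417, chromosome 11, 96271330 to 96276595). *Edil3*, which encodes a secreted integrin ligand, was at 9.22, 22.3, 15.0 and 19.7 CPM in SHAM and at 79.0, 61.6, 60.8 and 47.2 CPM in Laminectomy mice (1.91 ± 0.32, edgeR adjusted p = 0.0698, gene 13612, chromosome 13, 88821472 to 89323225). The gap between the groups was wider than the range of the SHAM mice for *Edil3*, and No operation tissue lay near SHAM, at 7.72, 13.4, 8.73 and 4.84 CPM. *Foxc1*, a forkhead factor of skeletal and dermal mesenchyme, was at 2.59, 4.97, 5.61 and 5.18 CPM in SHAM and at 27.8, 20.2, 14.2 and 12.6 CPM in Laminectomy mice (2.03 ± 0.38, edgeR adjusted p = 0.0978), with SHAM 1 the lowest. *Serpine2*, which encodes a protease inhibitor, was already at 156, 237, 204 and 173 CPM without surgery, and SHAM scar at 62.9, 143, 109 and 123 CPM lay below that level in every mouse.

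Lower in Laminectomy scar were *Efemp1*, *Icosl*, *Nectin2*, *Ackr3*, *Twist2*, *Slfn5*, *Cfb*, *H2-Q10*, *Gas7* and *Grina*. *Efemp1*, a matrix glycoprotein of connective tissue, was at 87.8, 94.9, 59.9 and 64.6 CPM in SHAM and at 11.9, 22.9, 29.8 and 28.4 CPM in Laminectomy mice (log2 fold change −1.72 ± 0.26 (SE), edgeR adjusted p = 0.0698, gene 216616, chromosome 11, 28853154 to 28926743). *Ackr3*, the scavenging receptor for CXCL12, was at 172, 115, 82.2 and 81.2 CPM in SHAM and at 15.6, 36.4, 31.2 and 30.4 CPM in Laminectomy mice (−1.99 ± 0.32, edgeR adjusted p = 0.0698, gene 12778, chromosome 1, 90203980 to 90215724). SHAM 1 was highest and Laminectomy 1 lowest for *Ackr3*, and the nearest mice of the groups still differed by more than 2-fold. *Twist2*, a factor of dermal fibroblasts, was at 22.03, 18.2, 9.69 and 12.3 CPM in SHAM and at 2.75, 4.01, 5.28 and 5.84 CPM in Laminectomy mice (−1.80 ± 0.29, edgeR adjusted p = 0.0698). *Cfb*, complement factor B of the alternative pathway, was at 738, 414, 370.2 and 334 CPM in SHAM and at 162, 128, 153 and 157 CPM in Laminectomy mice (−1.63 ± 0.27, edgeR adjusted p = 0.0698, gene 14962, chromosome 17, 34856374 to 34862514). All 4 Laminectomy mice lay close together for *Cfb*, within and just above the range of the No operation mice, at 128, 130.4, 87.3 and 69.3 CPM, and SHAM 1 was well above the other SHAM mice. *Icosl*, the ligand of the T cell costimulator ICOS, and *Nectin2*, an adhesion molecule, differed by less (−0.67 ± 0.11 and −0.85 ± 0.14 on the log2 scale) but with little spread inside either group. The plot of these 20 genes by fold change shows a spread of standard errors from 0.11 for *Icosl* to 0.67 for *Alpl*.

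**Figure D1:**
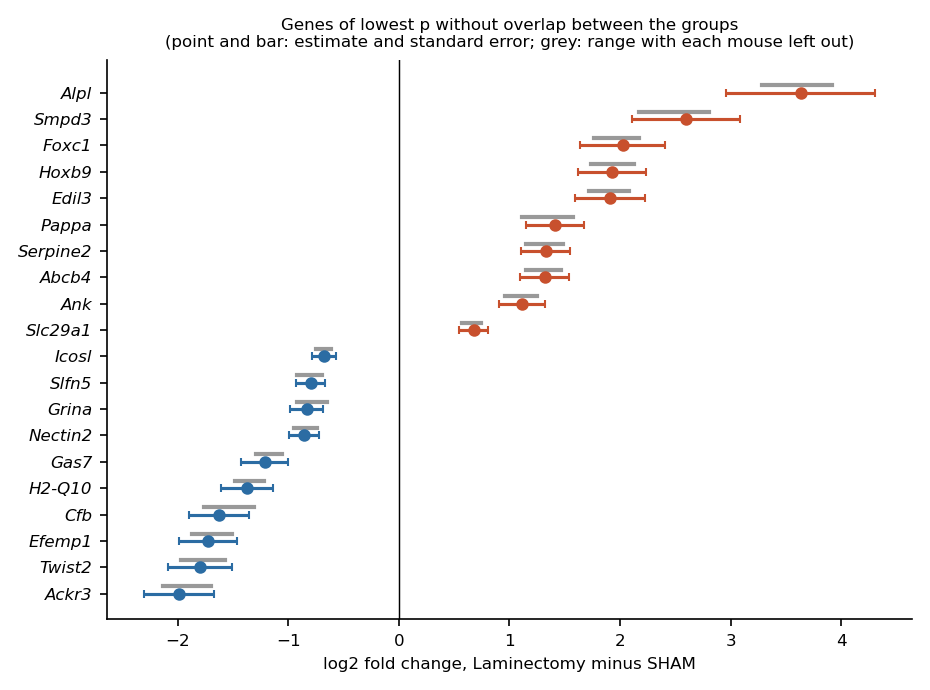
Log2 fold changes, Laminectomy minus SHAM, with standard errors from the edgeR fit for the 10 genes of lowest p in each direction (4 mice a group). *Alpl* at 3.63 was the farthest above 0 and *Ackr3* at −1.99 the farthest below, and none passed an adjusted p of 0.05.

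Of the 5 themes examined, bone and cartilage genes had mostly positive fold changes, interferon and cytokine genes had mostly negative fold changes, cell cycle genes had small positive fold changes in most members with a smaller share passing an unadjusted test than of all genes, and most respiration genes had small positive fold changes, with a number passing that single mice moved. In bone and cartilage, 93 of 103 tested members had a positive fold change, 67 passed an unadjusted p below 0.05 as higher (6.95% of all genes tested did) and 0 as lower, and the median was 1.29. In interferon genes, 102 of 116 were negative, 34 passed as lower (9.03% of all genes tested did) and 0 as higher, and the median was −0.33. In cytokine genes, 105 of 126 were negative, 47 passed as lower and 2 as higher, and the median was −0.60. In cell cycle genes, 158 of 172 were positive, 4 passed as higher and 3 as lower, and the median was 0.40. In respiration genes, 118 of 161 were positive, 14 passed as higher and 7 as lower, and the median was 0.18 (0.093 without SHAM 1, 0.11 without Laminectomy 4). Over all genes tested 50.6% were positive and 49.4% negative. DESeq2 called 31 members of the bone and cartilage theme higher (1.82% of all genes tested in edgeR) and 0 lower, 13 interferon members and 16 cytokine members lower (2.32%), and 2 or fewer in either direction for the cell cycle and respiration.

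**Figure D2:**
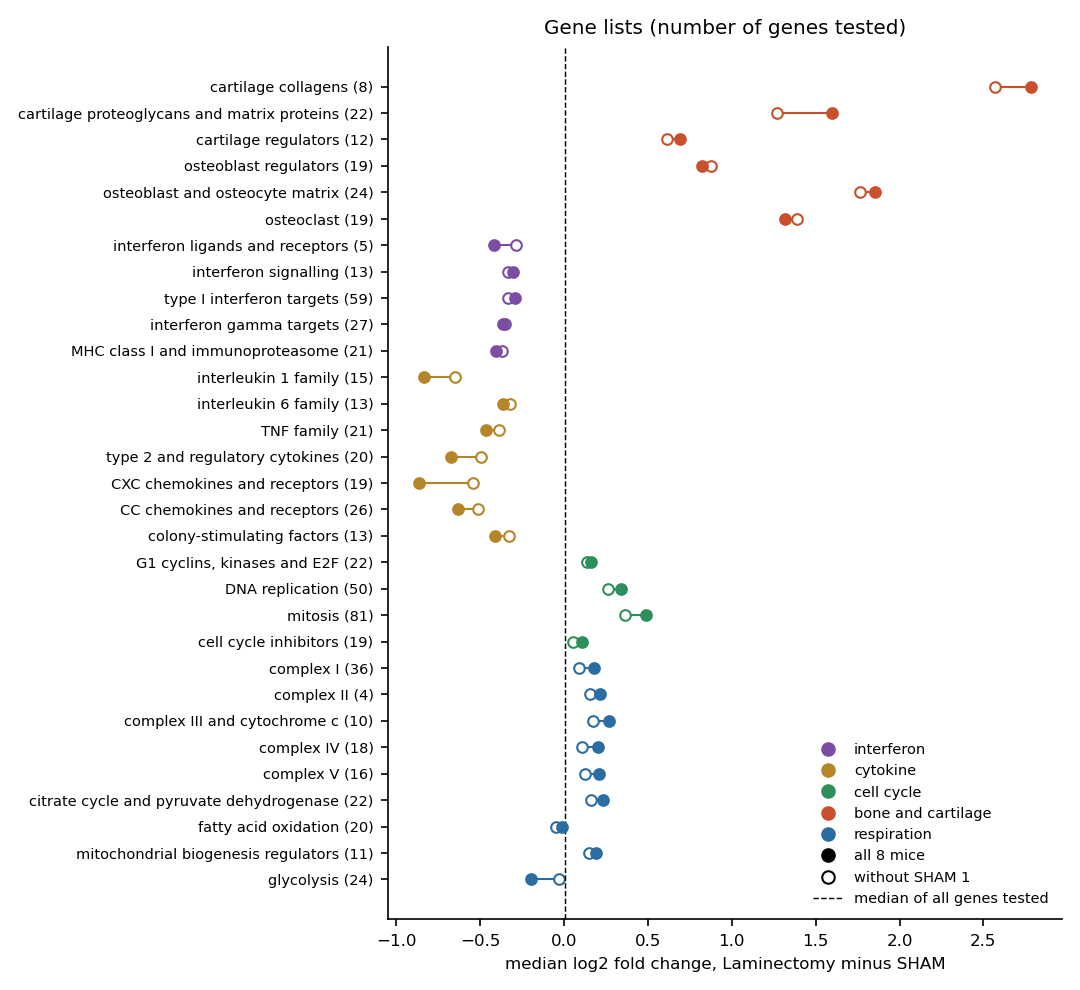
Median log2 fold change, Laminectomy minus SHAM, of each gene list, with all 4 mice a group and without SHAM 1. The lists of bone and cartilage lie to the right, led by cartilage collagens at 2.79 (2.57 without SHAM 1), the cytokine lists to the left, and the respiratory complexes near 0.

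Most osteoblast genes had positive fold changes in Laminectomy scar. Of all genes tested 6.95% were higher at an unadjusted p below 0.05 and 5.05% were higher without overlap. These shares stand beside the osteoblast, cartilage and osteoclast lists. Of 19 tested osteoblast regulators 16 were higher, 11 at an unadjusted p below 0.05 and 9 without overlap, and of 24 tested matrix genes of osteoblasts and osteocytes 21 were higher, 17 at that p (11 without Laminectomy 2, where 4.52% of all genes passed) and 15 without overlap. *Runx2*, the first factor that commits cells to the osteoblast lineage, was at 26.1, 30.6, 29.7 and 40.4 CPM in SHAM and at 81.1, 62.2, 56.0 and 45.3 CPM in Laminectomy mice (log2 fold change 0.95 ± 0.52 (SE), edgeR adjusted p = 0.394, gene 12393, chromosome 17, 44495987 to 44814797). *Sp7*, osterix, which acts after *Runx2*, was at 0.225, 6.37, 3.71 and 7.42 CPM in SHAM and at 62.6, 55.8, 27.8 and 26.6 CPM in Laminectomy mice (3.28 ± 1.21, edgeR adjusted p = 0.218, gene 170574, chromosome 15, 102356603 to 102367035). *Runx2* was thus well expressed in SHAM scar and differed less than *Sp7*, for which SHAM 1 was close to 0 and Laminectomy 1 and 2 were the highest. The homeobox factor *Dlx5* (2.67 ± 0.80, edgeR adjusted p = 0.153) did not overlap between groups either. *Pth1r*, the receptor of parathyroid hormone, was at 23.7, 50.0, 31.5 and 30.9 CPM in SHAM and at 108, 97.2, 54.3 and 62.2 CPM in Laminectomy mice (1.24 ± 0.36, edgeR adjusted p = 0.149).

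Among the products of osteoblasts, *Alpl*, the alkaline phosphatase that frees phosphate for mineral, was at 1.35, 13.1, 9.06 and 14.6 CPM in SHAM and at 163, 179.5, 68.6 and 62.6 CPM in Laminectomy mice (log2 fold change 3.63 ± 0.67 (SE), edgeR adjusted p = 0.0954, gene 11647, chromosome 4, 137741731 to 137796384). *Ibsp*, bone sialoprotein, was at 0.393, 96.9, 25.3 and 77.8 CPM in SHAM and at 1499, 1375, 574 and 501 CPM in Laminectomy mice (4.30 ± 1.66, edgeR adjusted p = 0.235, gene 15891, chromosome 5, 104299287 to 104311472). The SHAM mice differed among themselves by a wide margin for *Ibsp*, from SHAM 1 to SHAM 2, and no SHAM mouse reached the lowest Laminectomy mouse. *Bglap*, osteocalcin, whose near-identical neighbours *Bglap2* and *Bglap3* could share its reads, was at 0, 2.73, 0.900 and 8.59 CPM in SHAM and at 39.3, 56.7, 12.3 and 26.01 CPM in Laminectomy mice (3.45 ± 1.54, edgeR adjusted p = 0.300). *Dmp1*, a protein of osteocytes, was at 0.506, 2.03, 1.91 and 6.73 CPM in SHAM and at 27.8, 42.6, 16.9 and 15.3 CPM in Laminectomy mice (3.19 ± 1.18, edgeR adjusted p = 0.221). Neither *Bglap* nor *Dmp1* overlapped between the groups. *Smpd3*, a sphingomyelinase needed for mineralisation (2.59 ± 0.49, edgeR adjusted p = 0.0969), and *Ank*, which exports pyrophosphate, an inhibitor of mineral (1.12 ± 0.21, edgeR adjusted p = 0.0954) had, with *Alpl*, the smallest p values among the bone genes named here. *Spp1*, osteopontin, which macrophages also make in quantity, overlapped between the groups (0.53 ± 0.74, edgeR adjusted p = 0.750, and 0.22 to 0.82 with 1 mouse left out). The Laminectomy mice therefore lay apart from SHAM mice in *Alpl*, *Ibsp* and *Dmp1* but among them in *Spp1*.

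Promoter sequence was read for *Bglap*, an osteoblast gene whose proximal RUNX2 element is well known, and for *Spp1* beside it. The letters ACCACA, chosen after the values had been seen, were searched on both strands in the 250 bases before each start in RefSeq (GRCm38.p6). They stood in 4303 of 27025 genes with a promoter (15.9%), in 5 of 20 osteoblast and osteocyte matrix genes, in 1 of 9 osteoblast regulators and in 1 of 11 osteoclast genes. The stretches with the match in capitals lie at chr3:88384573-88384658, minus strand, for *Bglap* and at chr5:104434923-104435008, plus strand, for *Spp1*.
Bglap: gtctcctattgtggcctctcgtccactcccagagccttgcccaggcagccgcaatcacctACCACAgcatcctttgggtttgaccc
Spp1: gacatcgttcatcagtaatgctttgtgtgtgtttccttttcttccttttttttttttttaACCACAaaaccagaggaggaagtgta
The median log2 fold change was 3.19 for the 5 matrix genes with the letters and 1.15 for the others with a promoter. For the 1 regulator with them it was 0.95 against 0.68, and for the 1 osteoclast gene 0.039 against 1.31. Over all genes tested with a promoter the medians were −0.0076 with the letters and 0.0046 without. *Bglap* and *Spp1* both hold the letters and differed in their values as given above. A match describes the letters of the window and is not evidence of binding.

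Most cartilage genes had positive fold changes as well. All 8 tested cartilage collagens had a positive fold change and an unadjusted p below 0.05, and 5 did not overlap. Of 22 tested proteoglycans and matrix proteins 21 were positive and 12 passed (7 without SHAM 2), and of 12 cartilage regulators 11 were positive and 8 passed (5 without Laminectomy 2). *Col2a1*, the main fibrillar collagen of cartilage, was at 0.450, 1.82, 55.3 and 15.5 CPM in SHAM and at 173, 697, 158 and 53.9 CPM in Laminectomy mice (log2 fold change 3.88 ± 1.58 (SE), edgeR adjusted p = 0.258, gene 12824, chromosome 15, 97975602 to 98004724). SHAM 3 exceeded Laminectomy 4 for *Col2a1*, so the groups overlapped (two-sided exact permutation p = 0.0571). *Col9a3*, a collagen of the fibril surface, was at 2.75, 3.80, 4.396 and 2.03 CPM in SHAM and at 20.6, 38.6, 15.0 and 9.64 CPM in Laminectomy mice (2.69 ± 0.58, edgeR adjusted p = 0.111). *Col10a1*, which marks hypertrophic cartilage, was at 0, 0.0535, 3.55 and 2.03 CPM in SHAM and at 13.0, 60.6, 7.30 and 2.61 CPM in Laminectomy mice (3.88 ± 1.36, edgeR adjusted p = 0.201), with Laminectomy 2 far above the rest (a log2 fold change of 2.43 without it) and Laminectomy 4 below SHAM 3. *Acan*, aggrecan, was at 1.12, 16.6, 31.7 and 15.2 CPM in SHAM and at 172, 221, 87.0 and 73.9 CPM in Laminectomy mice (3.10 ± 0.90, edgeR adjusted p = 0.150). *Hapln1*, which links aggrecan to hyaluronan, was at 0.0562, 1.34, 2.44 and 1.49 CPM in SHAM and at 15.9, 31.8, 16.7 and 6.93 CPM in Laminectomy mice (3.73 ± 0.98, edgeR adjusted p = 0.135). The groups did not overlap for *Acan* or *Hapln1*, and Laminectomy 2 was the highest mouse for both.

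*Sox9*, the factor that commits cells to cartilage, was at 6.07, 15.1, 16.4 and 15.3 CPM in SHAM and at 31.1, 34.5, 19.1 and 27.1 CPM in Laminectomy mice (log2 fold change 1.08 ± 0.29 (SE), edgeR adjusted p = 0.135, gene 20682, chromosome 11, 112782210 to 112787757). SHAM 1 was the lowest mouse for *Sox9*. The growth factor receptor *Fgfr3* (1.16 ± 0.24, edgeR adjusted p = 0.111) and the forkhead factor *Foxc2* (1.93 ± 0.41, edgeR adjusted p = 0.111) did not overlap. *Prg4*, lubricin of joint surfaces and tendon, overlapped between the groups, at 490.5, 288, 789.8 and 263 CPM in SHAM and 619, 579, 475 and 376 CPM in Laminectomy mice (0.16 ± 0.45, edgeR adjusted p = 0.881), and its sign turned without SHAM 2 and without SHAM 4, to −0.029 in the latter. *Ihh*, the hedgehog ligand of growth cartilage, was below the filter, with at most 8 counts in a SHAM and 31 in a Laminectomy mouse.

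Most osteoclast genes had positive fold changes, and the ligand that drives their formation overlapped between the groups. Of 19 tested osteoclast genes 17 were positive, 12 passed an unadjusted p below 0.05 (7 without Laminectomy 1, where 8.37% of all genes passed) and 14 did not overlap. *Ctsk*, the collagen-cutting protease of osteoclasts, was at 412, 548, 444 and 529 CPM in SHAM and at 1746, 796, 912 and 1075 CPM in Laminectomy mice (log2 fold change 1.23 ± 0.45 (SE), edgeR adjusted p = 0.212, gene 13038, chromosome 3, 95499210 to 95509387). *Acp5*, tartrate-resistant acid phosphatase, was at 66.1, 152, 122 and 172 CPM in SHAM and at 732, 346, 338 and 398 CPM in Laminectomy mice (1.83 ± 0.67, edgeR adjusted p = 0.218). *Calcr*, the calcitonin receptor, was at 0.393, 0.749, 0.583 and 0.427 CPM in SHAM and at 1.80, 1.39, 2.43 and 2.82 CPM in Laminectomy mice (1.96 ± 0.44, edgeR adjusted p = 0.111). Every SHAM mouse lay below 1 CPM of *Calcr*, so its fold change rests on few reads. Laminectomy 1 was the highest mouse for *Ctsk* and *Acp5* and not for *Calcr*. *Nfatc1*, the factor that drives osteoclast formation (0.94 ± 0.20, edgeR adjusted p = 0.111), and *Dcstamp*, needed for cell fusion (2.11 ± 0.62, edgeR adjusted p = 0.152), did not overlap. *Tnfsf11*, which encodes the ligand RANKL, was at 15.4, 9.25, 7.84 and 13.5 CPM in SHAM and 18.4, 15.0, 7.72 and 19.0 CPM in Laminectomy mice (0.39 ± 0.54, edgeR adjusted p = 0.748), and its decoy receptor *Tnfrsf11b* also overlapped (0.25 ± 0.33, edgeR adjusted p = 0.739). Without Laminectomy 1 the number of osteoclast genes passing was 7 in place of 12, against 8.37% of all genes.

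**Figure D3:**
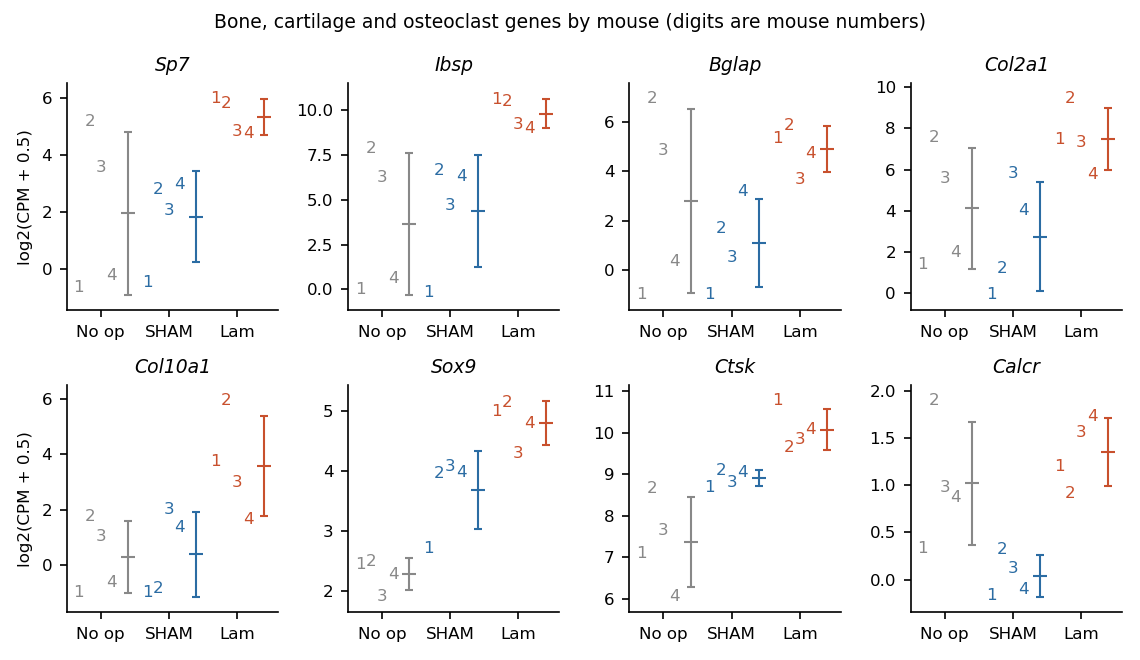
Log2(CPM + 0.5) of 8 osteoblast, cartilage and osteoclast genes in each mouse, with digits giving the mouse number and bars the mean ± SD of 4 mice. No operation mouse 2 lies among the operated mice for *Sp7*, *Ibsp* and *Col2a1*, and Laminectomy mice lie above SHAM mice for every gene except where *Col2a1* and *Col10a1* overlap.

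Bone transcripts were present in tissue that had no surgery, and unevenly. *Sp7* was at 0.138, 35.8, 11.4 and 0.350 CPM, *Ibsp* at 0.482, 224, 74.0 and 1.05 CPM and *Bglap* at 0, 122, 28.2 and 0.771 CPM in No operation mice. No operation 2 was thus high for all 3 genes, No operation 3 intermediate, and the others near 0. Marrow genes were also highest in No operation 2 and next in No operation 3: the 12 granulocyte precursor genes summed to 69.7, 3619, 1333 and 28.8 CPM in No operation mice, to 288, 154, 372 and 863 CPM in SHAM and to 367, 1772, 2795 and 474 CPM in Laminectomy mice. All 12 were positive with a median of 1.97, which was 1.15 without Laminectomy 3 and 3.26 without SHAM 4, and 0 passed an unadjusted p below 0.05. *Elane*, neutrophil elastase, was at 0.0562, 2.46, 7.52 and 26.4 CPM in SHAM and at 10.4, 39.4, 84.0 and 11.7 CPM in Laminectomy mice (log2 fold change 2.00 ± 1.47 (SE), edgeR adjusted p = 0.529), and SHAM 4 and Laminectomy 1 and 4 overlapped. Of 15 tested erythroid genes 14 were positive, 6 passed as higher (6.95% of all genes did) and 3 were higher without overlap (5.05% of all genes), and the summed level was 656, 1042, 1239 and 1224 CPM in SHAM and 7017, 2765, 4726 and 1183 CPM in Laminectomy mice. *Alas2*, the first enzyme of heme synthesis in red cell precursors, was at 13.5, 16.6, 23.99 and 23.3 CPM in SHAM and at 169, 58.8, 108 and 19.1 CPM in Laminectomy mice (2.20 ± 0.72, edgeR adjusted p = 0.185). Of 14 tested B and plasma cell genes 11 were positive and 0 passed an unadjusted p below 0.05. They summed to 285, 252, 270 and 264 CPM in SHAM and to 252, 241, 239 and 256 CPM in Laminectomy mice. The part of dissected bone and marrow in the values of the osteoblast, cartilage and osteoclast genes was not tested. Of the 103 bone and cartilage genes tested, 51 still passed an unadjusted p below 0.05 without SHAM 1 (5.08% of all genes), with a median of 1.24.

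Most interferon genes had negative fold changes, a minority of them passed an unadjusted test as lower, and the classical antiviral genes among them overlapped between the groups. Of the ligands, *Ifng* with at most 2 counts and *Ifnb1* with at most 3 counts in any mouse of these groups were below the filter, as were *Ifnk* and *Ifnl3* at 0, and 5 others were not analysed here. Of 5 tested ligands and receptors 4 had a negative fold change and 2 did not overlap (748 of all genes tested, 5.07%). *Ifnar2*, a chain of the type I receptor, was at 158, 121, 91.1 and 101 CPM in SHAM and at 84.0, 73.9, 69.9 and 76.4 CPM in Laminectomy mice (log2 fold change −0.63 ± 0.17 (SE), edgeR adjusted p = 0.135, gene 15976, chromosome 16, 91372783 to 91405589). *Ifngr1*, a chain of the interferon gamma receptor, was at 249, 154, 190.2 and 182 CPM in SHAM and at 150.2, 132, 136 and 139.9 CPM in Laminectomy mice (−0.47 ± 0.14, edgeR adjusted p = 0.149). Neither gene overlapped between the groups, and SHAM 1 was the highest mouse for both. *Jak2*, a kinase of the gamma receptor, was also lower without overlap (−0.66 ± 0.19, edgeR adjusted p = 0.151), with a log2 fold change of −0.40 without SHAM 1.

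Sequences are shown for targets that did and did not separate the groups. The interferon-stimulated response element is a promoter motif of interferon targets, and its core, GAAA repeated after any 2 bases and searched on both strands, stood in 936 of 27025 RefSeq genes with a promoter (3.46%). It stood in 20 of 48 type I interferon targets, in 11 of 16 interferon gamma targets and in 3 of 17 genes of MHC class I and the immunoproteasome. Capitals mark the matches, read 5′ to 3′ along the gene, so that a match on the other strand reads as TTTC repeated after 2 bases. For every gene shown, the promoter is the first by position in RefSeq that held a match. Those of *Ifit3* and *Slfn5* belong to later starts and lie inside the span of the gene. Positions are chr4:156200855-156200926, minus strand, for *Isg15*; chr19:34640755-34640833, plus strand, for *Ifit1*; chr19:34583353-34583436, plus strand, for *Ifit3*; chr3:142620564-142620643, plus strand, for *Gbp2*; and chr11:82951907-82951986, plus strand, for *Slfn5* (GRCm38.p6).
Isg15: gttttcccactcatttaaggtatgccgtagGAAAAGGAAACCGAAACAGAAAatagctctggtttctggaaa
Ifit1: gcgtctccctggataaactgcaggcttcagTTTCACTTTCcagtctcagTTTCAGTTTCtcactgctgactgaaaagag
Ifit3: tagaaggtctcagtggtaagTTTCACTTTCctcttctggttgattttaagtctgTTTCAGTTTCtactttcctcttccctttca
Gbp2: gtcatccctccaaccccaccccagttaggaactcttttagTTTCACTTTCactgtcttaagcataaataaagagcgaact
Slfn5: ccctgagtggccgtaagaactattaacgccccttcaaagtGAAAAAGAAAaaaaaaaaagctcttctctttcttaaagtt
The median log2 fold change of type I targets was −0.31 with the core and −0.24 without, and of gamma targets −0.36 with it and −0.37 without.

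Among type I targets, 50 of 59 tested were negative and 6 were lower without overlap (5.07% of all genes were). *Isg15*, a ubiquitin-like modifier, was at 17.6, 43.4, 20.3 and 36.3 CPM in SHAM and at 56.9, 24.1, 17.1 and 18.1 CPM in Laminectomy mice (log2 fold change −0.018 ± 0.44 (SE), edgeR adjusted p = 0.989). *Ifit3*, which binds foreign RNA, was at 40.01, 84.3, 57.9 and 68.3 CPM in SHAM and at 106, 48.9, 36.2 and 30.5 CPM in Laminectomy mice (−0.18 ± 0.39, edgeR adjusted p = 0.847). *Rsad2*, viperin, was at 25.0, 43.8, 45.7 and 49.0 CPM in SHAM and at 120.0, 36.8, 37.3 and 21.6 CPM in Laminectomy mice (0.40 ± 0.53, edgeR adjusted p = 0.736). Laminectomy 1 was the highest of the 8 mice for *Isg15*, *Ifit3* and *Rsad2*, and Laminectomy 4 was among the 3 lowest for each. *Slfn5*, the target of smallest p, was at 271, 225, 195 and 217 CPM in SHAM and at 162, 123, 119 and 118 CPM in Laminectomy mice (−0.80 ± 0.13, edgeR adjusted p = 0.0698, gene 327978, chromosome 11, 82951349 to 82964850). *Ifi205*, a DNA-binding protein of the p200 family whose paralogs lie beside it, was at 156, 95.1, 58.3 and 47.1 CPM in SHAM and at 27.5, 23.9, 26.3 and 29.5 CPM in Laminectomy mice (−1.73 ± 0.33, edgeR adjusted p = 0.0978). Both separated the groups, and Laminectomy 1 was only the highest of the Laminectomy mice for *Slfn5*. The antisense transcript *Slfn5os* overlaps *Slfn5* and was not in the table, so reads of the pair could not be divided if strand was not used.

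Interferon gamma targets gave 23 negative of 27 tested, with 7 lower without overlap (5.07% of all genes were). *Nos2*, inducible nitric oxide synthase of activated macrophages, was at 369, 76.7, 37.7 and 47.8 CPM in SHAM and at 21.2, 6.63, 8.65 and 17.2 CPM in Laminectomy mice (log2 fold change −3.31 ± 0.72 (SE), edgeR adjusted p = 0.111, gene 18126, chromosome 11, 78920787 to 78960226). SHAM 1 held several times more *Nos2* than any other mouse, without which the log2 fold change was −2.0, and the lowest SHAM mouse was still above the highest Laminectomy mouse. *Iigp1*, a GTPase that attacks vacuoles of microbes, was at 52.4, 63.2, 60.2 and 51.2 CPM in SHAM and at 29.5, 32.9, 36.4 and 36.1 CPM in Laminectomy mice (−0.75 ± 0.16, edgeR adjusted p = 0.111). *Serping1*, the C1 inhibitor, was at 1297, 738, 629 and 494 CPM in SHAM and at 164, 281, 342 and 419 CPM in Laminectomy mice (−1.39 ± 0.34, edgeR adjusted p = 0.117). Neither *Iigp1* nor *Serping1* overlapped between the groups. *Gbp2* (−0.42 ± 0.18, edgeR adjusted p = 0.281) and *Irgm1* (−0.18 ± 0.17, edgeR adjusted p = 0.617), GTPases of the same defence, overlapped, and *Cxcl9* and *Cxcl10*, the chemokines that name a gamma response, had fold changes of 0.25 ± 0.48 and 0.20 ± 0.53 on the log2 scale. All 21 tested genes of MHC class I and the immunoproteasome were negative with a median of −0.41, and 0 were without overlap. *B2m*, the invariant light chain, was at 1198, 1080.5, 779 and 894 CPM in SHAM and at 965, 667, 666 and 644 CPM in Laminectomy mice (−0.43 ± 0.20, edgeR adjusted p = 0.332). *Tap1* (−0.24 ± 0.27, edgeR adjusted p = 0.686) and *Psmb8* (−0.41 ± 0.21, edgeR adjusted p = 0.377) also overlapped, Laminectomy 1 being the highest of the 8 mice in each.

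Laminectomy 1 changed how many interferon genes passed when it was left out. Without it, 82 of 116 interferon genes were lower at an unadjusted p below 0.05 in place of 34, against 9.91% of all genes. The number for type I targets was then 39 in place of 11, for gamma targets 17 in place of 10, for the 13 signalling genes 9 in place of 4 and for MHC class I 20 in place of 6. The median of the interferon genes was −0.55 without Laminectomy 1 in place of −0.33. Without SHAM 1 the number was 28 (5.18% of all genes) with a median of −0.34. Of the 59 type I targets, 17 passed without SHAM 3 (9.51% of all genes in that setting) and 7 (11.9%) without each of Laminectomy 2 (6.66%), Laminectomy 3 (6.88%) and Laminectomy 4 (7.86%). Their median of −0.29 was −0.57 without Laminectomy 1 and −0.16, −0.16 and −0.15 without SHAM 2, Laminectomy 3 and Laminectomy 4. For MHC class I the number was 11 without SHAM 3 and 3 without Laminectomy 4. The 17 listed macrophage genes were all negative as well (10 passed and 5 were without overlap, against 9.03% and 5.07% of all genes). They summed to 12295, 7092, 6324 and 6983 CPM in SHAM and 7069.5, 4651, 5127 and 4443 CPM in Laminectomy mice. Their part in the interferon and cytokine values was not tested.

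**Figure D4:**
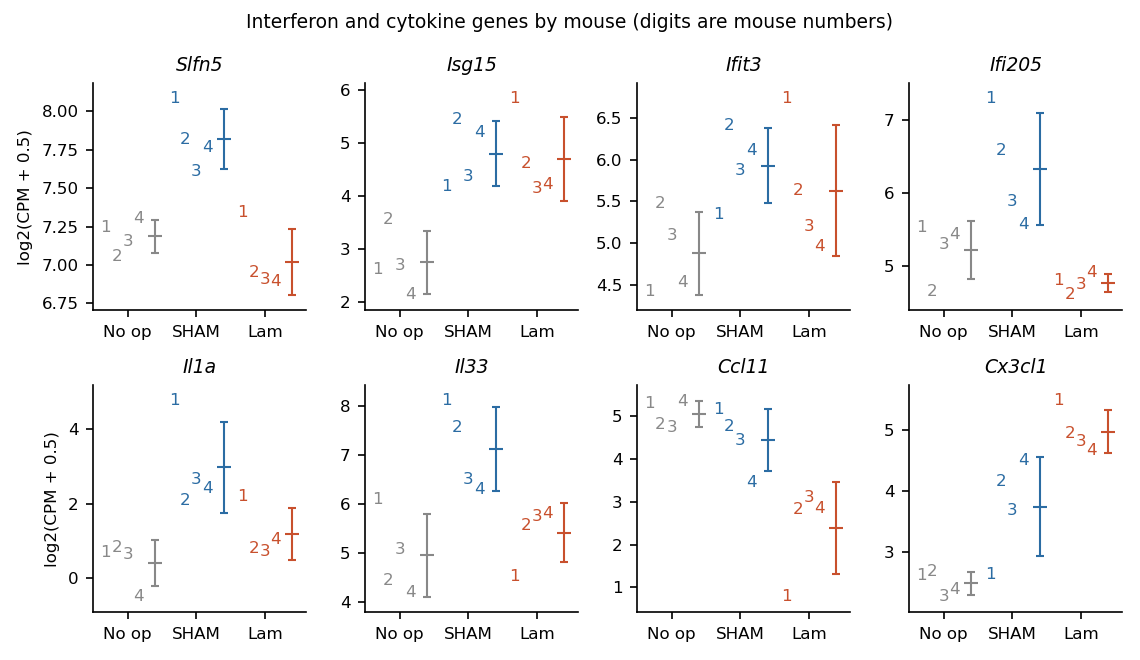
Log2(CPM + 0.5) of 8 interferon and cytokine genes in each mouse, with digits giving the mouse number and bars the mean ± SD of 4 mice. Laminectomy 1 is the top Laminectomy mouse for *Slfn5*, *Isg15* and *Ifit3*, SHAM 1 is the top mouse for *Il1a* and *Il33*, and *Cx3cl1* alone of the 8 is higher in all Laminectomy mice.

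Most cytokine genes had negative fold changes and a minority passed an unadjusted test as lower, with a negative median in each of their 7 lists. All 15 tested members of the interleukin 1 family were negative, 7 passed an unadjusted p below 0.05 and 3 did not overlap. Of all genes tested 9.03% passed as lower and 5.07% were lower without overlap, the shares to set beside each cytokine list. *Il1a* was at 26.4, 3.74, 5.77 and 4.75 CPM in SHAM and at 4.08, 1.23, 1.14 and 1.56 CPM in Laminectomy mice (log2 fold change −2.34 ± 0.71 (SE), edgeR adjusted p = 0.158). *Il1b* was at 260.4, 80.4, 152 and 211 CPM in SHAM and at 72.9, 79.0, 25.2 and 88.6 CPM in Laminectomy mice (−1.41 ± 0.67, edgeR adjusted p = 0.335). SHAM 1 was the highest mouse for both ligands, and 1 SHAM mouse lay below a Laminectomy mouse in each. Without SHAM 1 the log2 fold change was −1.24 for *Il1a* and −1.12 for the decoy receptor *Il1r2*. *Il33*, an alarm cytokine held in stromal nuclei, was at 275, 189, 90.4 and 78.5 CPM in SHAM and at 22.4, 46.8, 53.3 and 55.6 CPM in Laminectomy mice (−1.83 ± 0.51, edgeR adjusted p = 0.141, gene 77125, chromosome 19, 29925113 to 29960718). The groups did not overlap for *Il33*, with SHAM 1 and 2 well above SHAM 3 and 4 and Laminectomy 1 the lowest. *Il1r2* (−1.70 ± 0.49, edgeR adjusted p = 0.149) and *Il18* (−0.71 ± 0.20, edgeR adjusted p = 0.145) were without overlap, whereas the receptor antagonist *Il1rn*, which blocks the same receptor, overlapped (−0.42 ± 0.59, edgeR adjusted p = 0.754). The log2 fold change of *Il1rn* ran from −0.95 to −0.21 with 1 mouse left out.

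In the interleukin 6 family 12 of 13 tested were negative and 3 did not overlap (5.07% of all genes were lower without overlap). *Il6* was at 14.0, 6.69, 13.5 and 12.2 CPM in SHAM and at 3.76, 14.7, 3.11 and 16.9 CPM in Laminectomy mice (log2 fold change −0.27 ± 0.60 (SE), edgeR adjusted p = 0.849), and *Lif* (−0.58 ± 0.42, edgeR adjusted p = 0.523) and *Osm* (−0.43 ± 0.62, edgeR adjusted p = 0.757) overlapped too. *Il11*, linked to fibrosis and bone remodelling, was the member with a positive value (0.99 ± 0.50, edgeR adjusted p = 0.363), Laminectomy 1, 2 and 4 lying above all SHAM mice and Laminectomy 3 below them. Its receptor *Il11ra1* was lower without overlap (−1.01 ± 0.27, edgeR adjusted p = 0.135), in a locus where the chemokine gene *Ccl27a* shares exonic bases. In the TNF family 15 of 21 were negative and 5 were lower without overlap. *Tnf* was at 26.6, 13.6, 5.45 and 12.7 CPM in SHAM and 17.3, 1.80, 2.07 and 5.79 CPM in Laminectomy mice (−1.12 ± 0.70, edgeR adjusted p = 0.453), and its fold change was −0.64 without SHAM 1 and −2.18 without Laminectomy 1. The death receptor *Fas* was lower without overlap (−0.96 ± 0.22, edgeR adjusted p = 0.111). Of 20 type 2 and regulatory genes 18 were negative and 6 were lower without overlap. *Il10ra*, the interleukin 10 receptor, was at 110.3, 124, 95.5 and 93.4 CPM in SHAM and 72.8, 59.2, 56.3 and 73.2 CPM in Laminectomy mice (−0.70 ± 0.16, edgeR adjusted p = 0.112). *Il13ra2*, the decoy for interleukin 13, was 34.8 CPM in SHAM 1, between 6.67 and 7.33 CPM in SHAM 2, 3 and 4, and 1.04 to 4.12 CPM in Laminectomy mice (−2.76 ± 0.72, edgeR adjusted p = 0.135). Without SHAM 1 the log2 fold change of *Il13ra2* was −1.75. *Il4*, *Il13* and *Csf2* were below the filter.

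Chemokine genes had mostly negative fold changes, and the number that passed varied with the mice included. Of 19 CXC chemokines and receptors 16 were negative and 3 were lower without overlap (5.07% of all genes were). Of 26 CC members 18 were negative and 6 were lower without overlap. *Cxcl2*, a neutrophil attractant, was at 144, 35.2, 53.5 and 62.3 CPM in SHAM and at 32.9, 15.2, 4.71 and 24.7 CPM in Laminectomy mice (log2 fold change −1.93 ± 0.77 (SE), edgeR adjusted p = 0.250). *Cxcl5* was at 458, 207, 118 and 196 CPM in SHAM and at 121, 45.4, 41.0 and 147 CPM in Laminectomy mice (−1.47 ± 0.93, edgeR adjusted p = 0.459). SHAM 1 was the highest for both, without which the log2 fold change of *Cxcl5* was −0.96, and Laminectomy 1 and 4 lay above SHAM 3 for *Cxcl5*. *Ccl2*, the monocyte attractant, was at 113, 93.9, 73.2 and 106 CPM in SHAM and at 70.7, 45.0, 30.1 and 60.8 CPM in Laminectomy mice (−0.90 ± 0.67, edgeR adjusted p = 0.532), and its receptor *Ccr2* overlapped (−0.54 ± 0.36, edgeR adjusted p = 0.484). *Ccl8* was at 263, 175, 88.3 and 63.2 CPM in SHAM and at 13.1, 36.7, 48.3 and 54.5 CPM in Laminectomy mice (−1.95 ± 0.77, edgeR adjusted p = 0.248). *Ccl11*, eotaxin, made by stromal cells, was at 35.2, 26.5, 21.0 and 10.5 CPM in SHAM and at 1.22, 6.58, 8.03 and 6.67 CPM in Laminectomy mice (−2.05 ± 0.48, edgeR adjusted p = 0.112, gene 20292, chromosome 11, 82057832 to 82062955). Laminectomy 1 was far below the other Laminectomy mice for *Ccl11*, and No operation tissue, at 38.6, 27.6, 26.3 and 39.8 CPM, lay within or above the range of SHAM scar. *Cx3cl1*, fractalkine, a membrane-bound chemokine of the CX3C type counted here with the CC list, was at 5.73, 17.3, 12.3 and 22.3 CPM in SHAM and at 44.3, 30.3, 27.7 and 25.0 CPM in Laminectomy mice (1.14 ± 0.33, edgeR adjusted p = 0.151, gene 20312, chromosome 8, 94772180 to 94782427). It was the list member that was higher in every Laminectomy mouse, with No operation values of 5.65, 5.92, 4.33 and 4.77 CPM. *Csf3*, which drives neutrophil production, was at 16.6, 3.85, 2.33 and 2.08 CPM in SHAM and 0.106, 0.103, 0.104 and 1.56 CPM in Laminectomy mice. It was tested only because of its level in SHAM scar, and its fitted fold change is not given. *Csf1* overlapped (−0.41 ± 0.16, edgeR adjusted p = 0.229).

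Over all 126 cytokine genes, 47 passed as lower with every mouse, 23 without SHAM 1 (5.18% of all genes), 29 without Laminectomy 2 (6.66%) and 30 without Laminectomy 3 (6.88%). The median without SHAM 1 was −0.45 in place of −0.60. Of the 19 CXC genes 9 passed with every mouse (9.03% of all genes). The number was 2 without SHAM 1 and 5, 4 and 3 without Laminectomy 1, 2 and 3 (9.91%, 6.66% and 6.88% of all genes). The median of the CXC genes was −0.87 with every mouse and −0.54 without SHAM 1. Of the 26 CC genes 6 passed as lower with every mouse, 2 without SHAM 1 and 3 without Laminectomy 2, and the median of −0.63 became −0.51 without SHAM 1. The 7 of the TNF family became 4 without each of SHAM 1, Laminectomy 2 and Laminectomy 3, whereas the interleukin 1 family gave 7 with every mouse and 6 to 9 with 1 left out. *C1qa*, a complement protein of tissue macrophages, was at 643, 488, 400.3 and 381 CPM in SHAM and at 301, 258, 253 and 281 CPM in Laminectomy mice (log2 fold change −0.81 ± 0.26 (SE), edgeR adjusted p = 0.179), and *Adgre1*, F4/80 (−0.79 ± 0.34, edgeR adjusted p = 0.290, and a log2 fold change of −0.52 without SHAM 1), were lower without overlap, whereas *Cd68* overlapped (−0.32 ± 0.39, edgeR adjusted p = 0.715). Without SHAM 1 the macrophage list gave 6 genes at an unadjusted p below 0.05 and a median of −0.52 in place of −0.81, and without Laminectomy 2 it gave 6. Of 14 tested genes of MHC class II and dendritic cells 13 were negative, 8 passed (9.03% of all genes) and 7 did not overlap (5.07%). With each single mouse left out 8 passed. *Cd74*, the invariant chain of MHC class II, was at 401, 379.6, 280.1 and 421 CPM in SHAM and at 229, 209.5, 182 and 274 CPM in Laminectomy mice (−0.73 ± 0.17, edgeR adjusted p = 0.113).

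Most cell cycle genes had small positive fold changes, mostly within the spread between mice, with list medians from 0.49 for mitosis to 0.16 for G1 genes and 0.10 for inhibitors. The inhibitor median was 0.053 without SHAM 1 and 0.052 without Laminectomy 2. All but 1 of the 81 tested mitosis genes and all but 1 of 50 DNA replication genes had a positive fold change, with medians of 0.49 and 0.34, and 6 of the 81 and 3 of the 50 were higher without overlap, against 5.05% of all genes. *Mki67*, the proliferation antigen, was at 78.1, 121, 127 and 169 CPM in SHAM and at 181, 189.7, 230.1 and 143 CPM in Laminectomy mice (log2 fold change 0.59 ± 0.76 (SE), edgeR adjusted p = 0.727, gene 17345, chromosome 7, 135689784 to 135716450). *Cdk1*, the kinase that starts mitosis, was at 27.3, 33.0, 43.2 and 50.7 CPM in SHAM and at 64.4, 52.0, 53.1 and 46.6 CPM in Laminectomy mice (0.49 ± 0.58, edgeR adjusted p = 0.704, gene 12534, chromosome 10, 69335146 to 69352912). *Top2a*, which untangles chromosomes, was at 72.8, 77.1, 125 and 138 CPM in SHAM and at 160.4, 158, 176 and 107 CPM in Laminectomy mice (0.54 ± 0.71, edgeR adjusted p = 0.730). SHAM 1 was the lowest mouse in each of these genes, and Laminectomy 4 lay within the SHAM range. The replication helicase genes *Mcm2* (0.38 ± 0.36, edgeR adjusted p = 0.631) and *Mcm5* (0.50 ± 0.49, edgeR adjusted p = 0.642) and the nucleotide enzyme *Rrm2* (0.77 ± 0.63, edgeR adjusted p = 0.572) overlapped too, and *Pcna* overlapped as well (0.064 ± 0.20, edgeR adjusted p = 0.895). *Rpa2*, which coats single-stranded DNA, was at 15.8, 18.6, 19.2 and 18.8 CPM in SHAM and at 25.9, 21.2, 24.8 and 23.3 CPM in Laminectomy mice (0.39 ± 0.10, edgeR adjusted p = 0.120), and the groups did not overlap.

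Mitotic promoters often carry the cell cycle homology region TTTGAA together with the NF-Y box CCAAT, and both are shown for *Mki67* and *Cdk1*, with matches on either strand in capitals. In RefSeq promoters TTTGAA stood in 18.3% and CCAAT in 37.5% of 27025 genes, in 27 and 46 of 66 mitosis genes, and in 5 and 21 of 37 DNA replication genes. The stretches lie at chr7:135716468-135716571, minus strand, and at chr10:69352918-69353124, minus strand (GRCm38.p6).
Mki67: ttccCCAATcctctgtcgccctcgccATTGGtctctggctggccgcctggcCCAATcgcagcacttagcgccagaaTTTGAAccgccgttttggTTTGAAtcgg
Cdk1: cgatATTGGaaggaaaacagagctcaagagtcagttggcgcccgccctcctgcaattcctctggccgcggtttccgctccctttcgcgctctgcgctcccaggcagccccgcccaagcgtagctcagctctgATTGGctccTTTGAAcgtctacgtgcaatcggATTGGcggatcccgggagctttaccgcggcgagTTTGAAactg
Mitosis genes with TTTGAA had a median log2 fold change of 0.48 and those without it 0.49, and for CCAAT the medians were 0.49 and 0.44.

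Of 22 tested G1 genes 17 were positive and 4 were higher without overlap. *Ccne2*, a cyclin that starts replication, was at 10.8, 6.79, 13.2 and 13.6 CPM in SHAM and at 19.3, 17.4, 24.04 and 14.4 CPM in Laminectomy mice (log2 fold change 0.76 ± 0.33 (SE), edgeR adjusted p = 0.292), without overlap, and *E2f3* was also without overlap (0.24 ± 0.079, edgeR adjusted p = 0.179). *Ccnd1* (0.20 ± 0.17, edgeR adjusted p = 0.588) and *E2f1* (−0.086 ± 0.22, edgeR adjusted p = 0.872) overlapped. Among 19 inhibitors 12 were positive and 2 were lower without overlap. *Cdkn1a*, p21, was at 176, 223, 174 and 217 CPM in SHAM and 206, 224, 192 and 226 CPM in Laminectomy mice (0.10 ± 0.33, edgeR adjusted p = 0.897), and each scar lay above the highest No operation mouse. *Gadd45b*, a stress gene, was lower without overlap (−0.56 ± 0.16, edgeR adjusted p = 0.151). With every mouse 4 of the 172 cell cycle genes passed as higher (2.33%, against 6.95% of all genes), and without SHAM 4 it was 8 (4.65%, against 7.65% of all genes). Without SHAM 1 the median of the mitosis list was 0.36 in place of 0.49. No operation 2, the unoperated mouse with the most bone and marrow transcripts, held 181 CPM of *Mki67*, against 4.63 to 71.5 CPM in the other unoperated mice and 143 to 230.1 CPM in Laminectomy mice. The part of marrow cells in the cell cycle values was not tested.

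Most genes of mitochondrial respiration had small positive fold changes, within the spread between mice for most members. All 4 tested subunits of complex II, all 10 of complex III with cytochrome c and all 16 of complex V were positive, as were 32 of 36 of complex I and 14 of 18 of complex IV, with medians of 0.18 to 0.27. No member of complexes I, II, IV or V was without overlap, and 1 of complex III with cytochrome c was. *Ndufs1*, the iron-sulfur core of complex I, was at 68.2, 74.2, 101 and 121 CPM in SHAM and at 102, 133, 132 and 111 CPM in Laminectomy mice (log2 fold change 0.39 ± 0.18 (SE), edgeR adjusted p = 0.302). *Atp5b*, the catalytic subunit of ATP synthase, was at 509.6, 539, 824 and 865 CPM in SHAM and at 847, 984, 885 and 777 CPM in Laminectomy mice (0.35 ± 0.19, edgeR adjusted p = 0.384). SHAM 1 and 2 were lowest for both genes, and SHAM 4 lay within the Laminectomy range. *Cycs*, cytochrome c, was at 86.6, 104, 114 and 126 CPM in SHAM and at 144, 138, 153 and 156 CPM in Laminectomy mice (0.46 ± 0.14, edgeR adjusted p = 0.164, gene 13063, chromosome 6, 50562563 to 50566569), without overlap. No operation tissue held more of each, at 316, 311, 368 and 377 CPM for *Ndufs1* and 392, 372, 414 and 535 CPM for *Cycs*, and all 8 scars lay far below it. Mitochondrially encoded subunits were not analysed here.

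The muscle forms of complex IV were lowest in SHAM 1 and Laminectomy 1. *Cox6a2* was at 6.74, 23.2, 20.5 and 28.8 CPM in SHAM and at 9.32, 36.1, 37.3 and 41.1 CPM in Laminectomy mice (log2 fold change 0.64 ± 0.47 (SE), edgeR adjusted p = 0.526), and *Cox7a1* was at 1.52, 3.42, 2.17 and 3.20 CPM in SHAM and at 1.59, 4.94, 5.49 and 5.53 CPM in Laminectomy mice (0.76 ± 0.36, edgeR adjusted p = 0.328). SHAM 1 and Laminectomy 1 were the lowest mice for both, as they were for the muscle creatine kinase *Ckm*, at 174, 517, 732 and 735 CPM in SHAM and 183, 1052, 1012 and 836 CPM in Laminectomy mice (0.51 ± 0.52, edgeR adjusted p = 0.651). *Cox4i1*, a subunit of all tissues, overlapped between the groups (0.068 ± 0.12, edgeR adjusted p = 0.812). All 19 mature muscle genes were positive with a median of 0.62 and 0 passed an unadjusted p below 0.05 (0.32 without SHAM 1), and all 13 genes of regenerating muscle were positive with a median of 0.70 (0.30 without SHAM 1). *Myog*, which drives muscle differentiation, was at 0.955, 115, 70.1 and 95.5 CPM in SHAM and 124, 133, 119 and 132 CPM in Laminectomy mice (0.85 ± 0.79, edgeR adjusted p = 0.618). The part of muscle in the respiration values was not tested, and without SHAM 1 the median of complex I was 0.09 in place of 0.18 and that of complex V 0.12 in place of 0.21, those of complex III and complex IV being 0.17 in place of 0.27 and 0.11 in place of 0.20. Without Laminectomy 4 the medians of complexes I and IV were 0.11 and 0.12.

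Of 22 tested genes of the citrate cycle and pyruvate dehydrogenase 19 were positive, and of 20 fatty acid oxidation genes 9 were positive. The 9 became 5 without SHAM 1, 2 without SHAM 2 and 13 without SHAM 3. Citrate synthase *Cs* (log2 fold change 0.24 ± 0.14 (SE), edgeR adjusted p = 0.422) and the fatty acid importer *Cpt1b* (0.52 ± 0.40, edgeR adjusted p = 0.543) overlapped. Of 11 regulators of mitochondrial number 7 were positive and 2 did not overlap. *Ppargc1b*, a coactivator that osteoclasts also use to build mitochondria, was at 9.22, 17.5, 16.5 and 21.6 CPM in SHAM and at 27.5, 26.6, 26.3 and 28.6 CPM in Laminectomy mice (0.75 ± 0.20, edgeR adjusted p = 0.139). The groups did not overlap for *Ppargc1b*, whereas *Ppargc1a*, its relative in muscle, was lowest in Laminectomy 1 (0.73 ± 0.43, edgeR adjusted p = 0.424). Of 24 tested glycolysis genes 17 were negative, 4 passed as lower (9.03% of all genes), 2 passed as higher (6.95%) and 1 was lower without overlap (5.07%). The 4 became 8 without Laminectomy 1 (9.91% of all genes). Without SHAM 1 the glycolysis counts were 14 negative, 1 lower and 2 higher, and the median was −0.032 in place of −0.20. *Pfkfb3*, which speeds glycolysis, was at 321, 106, 164 and 110.1 CPM in SHAM and at 92.5, 77.9, 81.4 and 82.5 CPM in Laminectomy mice (−1.07 ± 0.33, edgeR adjusted p = 0.164), without overlap and with SHAM 1 highest (a log2 fold change of −0.60 without it), and *Ldha* overlapped between the groups (−0.078 ± 0.19, edgeR adjusted p = 0.861). Over all 161 respiration genes, 14 passed as higher with every mouse (8.70%, against 6.95% of all genes). This number was 4 without Laminectomy 2 (4.52% of all genes in that setting), 6 without SHAM 1 (5.08%), 7 without Laminectomy 3 (5.26%), 7 without Laminectomy 4 (7.02%) and 8 without SHAM 2 (6.14%), each a smaller share than that of all genes. It was 24 without Laminectomy 1 (8.37%), 21 without SHAM 3 (6.96%) and 39 without SHAM 4 (7.65%). The 7 that passed as lower became 4 without SHAM 1 and 12 (7.45%) without SHAM 2 or Laminectomy 1, where 8.88% and 9.91% of all genes did.

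**Figure D5:**
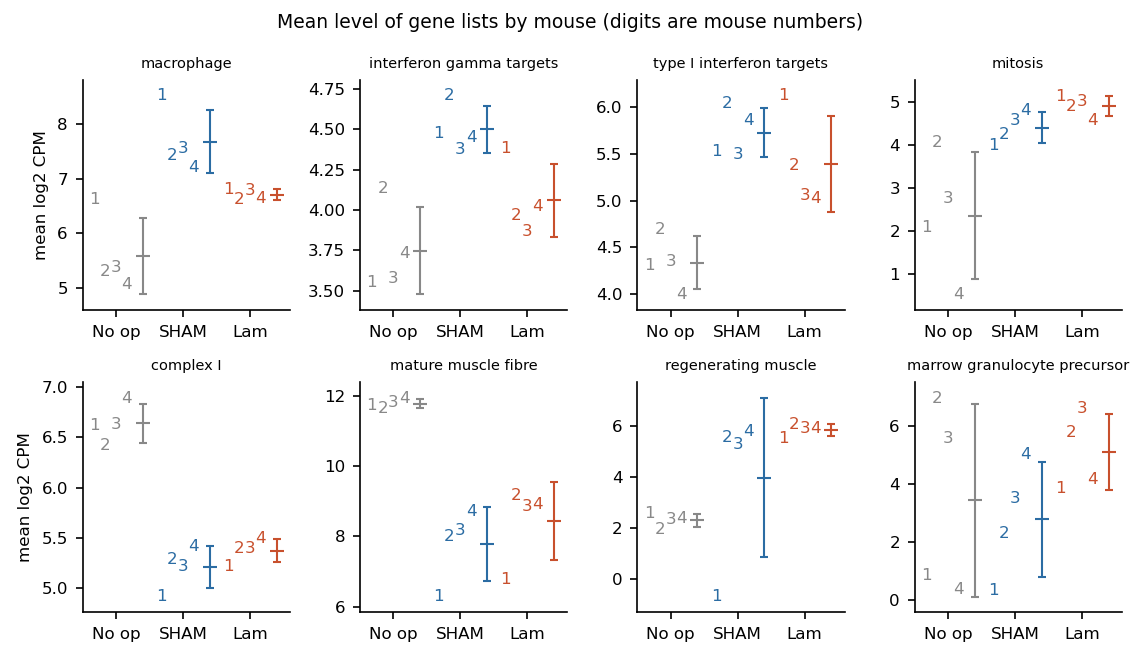
Mean log2 CPM of 8 gene lists in each mouse, with digits giving the mouse number and bars the mean ± SD of 4 mice. SHAM 1 lies far below the other operated mice for regenerating muscle and highest for macrophages, and Laminectomy 1 is low for mature muscle.

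Stromal genes differed in both directions. Of 18 fibroblast and myofibroblast genes 10 were positive, with a median of 0.08 that ran from 0.00091 to 0.14 with 1 mouse left out. At an unadjusted p below 0.05, 1 was higher and 5 were lower (9.03% of all genes were lower), and the 5 became 3 without each of SHAM 1, 2 and 3 and Laminectomy 1 and 2. The genes named from the lower side were chosen after their values were seen. *Pi16*, a marker of adventitial fibroblasts, was at 338, 321, 269 and 49.3 CPM in SHAM and at 5.72, 57.8, 68.9 and 53.3 CPM in Laminectomy mice (log2 fold change −2.39 ± 0.69 (SE), edgeR adjusted p = 0.150). SHAM 4 lay within the range of the Laminectomy mice for *Pi16*, and Laminectomy 1 was the lowest. *Pdgfra*, a growth factor receptor of mesenchymal cells, was at 331, 251, 267 and 329 CPM in SHAM and at 152, 169, 203 and 241 CPM in Laminectomy mice (−0.62 ± 0.21, edgeR adjusted p = 0.198), without overlap. The matrix genes *Dpt* (−0.72 ± 0.33, edgeR adjusted p = 0.313) and *Col3a1* (−0.67 ± 0.58, edgeR adjusted p = 0.591) were without overlap too, *Col3a1* at an unadjusted p above 0.05, and *Dcn* (−0.79 ± 0.35, edgeR adjusted p = 0.303) and *Thy1* (−0.49 ± 0.19, edgeR adjusted p = 0.250) overlapped. The log2 fold change was −0.43 without Laminectomy 1 for *Dpt* and −0.50 without SHAM 1 for *Dcn*. *Fap*, the fibroblast activation protein, was at 47.3, 58.3, 60.1 and 61.7 CPM in SHAM and at 93.9, 108, 98.0 and 83.5 CPM in Laminectomy mice (0.76 ± 0.23, edgeR adjusted p = 0.158, gene 14089, chromosome 2, 62500936 to 62575509). No mouse overlapped, the two-sided exact permutation p was 0.0286 and DESeq2 gave an adjusted p of 0.0411. No operation mice held 38.7, 88.9, 61.5 and 41.1 CPM of *Fap*, No operation 2 lying within the Laminectomy range. *Acta2*, smooth muscle actin of myofibroblasts (0.38 ± 0.30, edgeR adjusted p = 0.555), and *Postn*, periostin (0.28 ± 0.72, edgeR adjusted p = 0.874), overlapped. All 8 tendon genes were positive with a median of 0.53 (0.23 to 0.94 with 1 mouse left out).

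Other markers show what else the dissected pieces held. Brain and spinal cord transcripts were present in Laminectomy 2 and 3: the 7 tested of 13 glial genes summed to 66.8, 815, 241 and 75.7 CPM in Laminectomy mice and to 173, 66.7, 165 and 75.4 CPM in SHAM mice. Without Laminectomy 2 the median of the glial list was 0.47 in place of 2.37. *Gfap* of astrocytes was at 1.38, 52.7, 18.1 and 0.261 CPM in Laminectomy and at most 0.641 CPM in SHAM mice, the neuronal gene *Snap25* was at 63.1 and 23.7 CPM in Laminectomy 2 and 3 and at most 0.053 CPM elsewhere in these groups, and *Mobp* of myelin was at 0 in all SHAM mice. Mast cell genes ran the other way, with 6 of 8 tested negative, 6 passing as lower (9.03% of all genes did), 0 without overlap and a median of −2.14. The protease *Cma1* was at 19.2, 13.7, 10.6 and 2.56 CPM in SHAM and 0.265, 2.06, 1.30 and 2.76 CPM in Laminectomy mice (log2 fold change −2.84 ± 0.65 (SE), edgeR adjusted p = 0.111). All 10 tested adipocyte genes were negative with a median of −1.71 and the highest sum in SHAM 3, without which the median was −0.51. The 4 tested of 9 epidermis genes summed to 90.8, 25.0, 50.4 and 15.2 CPM in SHAM and 12.2, 13.8, 15.4 and 18.9 CPM in Laminectomy mice, and *Krt14* reached 700 counts in a SHAM mouse. T and NK cell genes were negative in 12 of 14 tested. Mature neutrophil genes were positive in 6 of 11 and endothelial genes in 6 of 13 (2 without Laminectomy 4, 9 without Laminectomy 3). Schwann cell genes were positive in 4 of 10 (7 without SHAM 1) and neuronal genes in 7 of 7 (4 without Laminectomy 2). The part of these tissues in the values of the themes was not tested.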

How the data were processed

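Bulk RNA was sequenced from 12 mice, and groups and replicates follow the sample labels. The methods give polyA-selected stranded libraries (TruSeq) aligned with STAR to GRCm38/mm10 and counted with featureCounts at default settings, and the submitters' processing notes list STAR 2.6.1b, featureCounts 2.0.1 and DESeq2 1.30.1. The deposited table holds estimated counts made by the authors per gene, not normalized; 10.2% of its values (2933 genes) were not whole, the step that made them so is not given in the sources used here, and they were rounded. The default of featureCounts does not use strand, so reads of genes that overlap on opposite strands cannot be told apart.

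All 12 mice were fitted in 1 model in edgeR 4.0.16 (R 4.3.3, limma 3.58.1) with filterByExpr, TMM scaling (factors 0.985 to 1.13 in SHAM and Laminectomy libraries) and the quasi-likelihood test, and Laminectomy minus SHAM was taken as the contrast. Genes were called at a Benjamini-Hochberg adjusted p below 0.05 with an absolute log2 fold change above 0.5. Levels are CPM on the scaled libraries, and permutation tests were exact and two-sided over 70 arrangements on log2 CPM (prior count 2). Tables and plots used Python 3.11.15, pandas 2.3.3, numpy 2.4.6 and matplotlib 3.10.9. The scripts were tested on simulated data. Counting error is small at these depths for genes of many reads, where precision was set by the spread between mice. It is larger below 1 CPM, as for *Calcr*, *Hapln1*, *Col10a1* and *Bglap* in SHAM 1. No pair of libraries of a group agreed within sampling noise.

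The 51 gene lists and the comparison itself were chosen with earlier results of these data known. Genes named are preset anchors of each list, up to 3 members of lowest p in each direction of a list with a mean of at least 1 CPM, and the 10 genes of lowest p in each direction with a mean of at least 10 CPM and no overlap. Of these, the text gives values for those that show what a list did, and some listed genes are not reported here. Alternatives were DESeq2 1.42.0, its size factors in edgeR, other filters on low counts, a fit of the 8 operated mice alone, the replicate number as a block, no minimum fold, and each mouse left out. DESeq2 and list counts with each mouse left out were chosen after seeing the data. Gene positions and promoters are RefSeq GRCm38.p6, matched by gene identifier for 18942 of 18996 genes, without conversion of coordinates. Of 174 genes named or plotted, 47 share exonic bases with another gene, 13 of them on the same strand and 20 with a gene of the table (*Col10a1* with *Nt5dc1*, *Col9a3* with *Tcfl5*, *Pth1r* with *Myl3*, *Cxcl10* with *Art3* and *Ndufs1* with *Eef1b2* among them), and paralogs such as *Bglap*, *Ifit*, *Gbp* and MHC genes may share reads.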

Additional observations from a re-analysis of the deposited data

Results flagged for a closer look

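Among 446 groups of 4 mice examined over named genes and lists, 34 held a mouse far from the other 3 on the log2 scale by Dixon's criterion, which chance gives in about 1 in 20 groups. SHAM 1 was low for *Foxc1* (2.59 CPM), *Dlx5* (0.281 CPM), *Susd5* (0.562 CPM), *Sox9* (6.07 CPM), *Rsad2* (25.0 CPM), *Cxcl10* (5.96 CPM), *Rpa2* (15.8 CPM), *Cpt1b* (8.77 CPM), *Myog* (0.955 CPM), *Mymk* (0.112 CPM) and *Cd79a* (0.281 CPM), and high for *Il13ra2* (34.8 CPM). The mean log2 CPM of SHAM 1 was high for CXC chemokines and receptors (5.33) and low for regenerating muscle (−0.68).

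Laminectomy 1 was high among Laminectomy mice for *Slfn5* (162 CPM), *Nfatc1* (214 CPM), *B2m* (965 CPM), *H2-M3* (18.9 CPM) and *Ccl5* (5.19 CPM). It was low for *Ccl11* (1.22 CPM), *Cox6a2* (9.32 CPM), *Cox7a1* (1.59 CPM), *Cpt1b* (9.32 CPM), *Ckm* (183 CPM), *Pi16* (5.72 CPM) and the mast cell protease *Cpa3* (0.529 CPM). Its mean log2 CPM was low for mature muscle fibre genes (6.77) and mast cell genes (−0.22).

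Of the remaining mice, SHAM 3 was low for *Psmb8* (42.1 CPM) and held the 0.053 CPM of *Snap25* where other SHAM mice held 0, SHAM 2 was low for *Osm* (6.53 CPM), SHAM 4 was low for *Pi16* (49.3 CPM), Laminectomy 3 was low for *Il1b* (25.2 CPM), and Laminectomy 4 was high for *Csf3* (1.56 CPM).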

How the results depend on the processing

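The edgeR test called 0 genes under every alternative run, with smallest adjusted p values of 0.055 (without SHAM 4) to 0.264 (without Laminectomy 2), and 1026 genes higher and 1333 lower at an unadjusted p below 0.05 with all mice. DESeq2 called 696 genes, and with 1 mouse left out it called 261, 523, 653 and 754 without SHAM 1, 2, 3 and 4 and 839, 209, 338 and 694 without Laminectomy 1, 2, 3 and 4. It gave no adjusted p to 2601 genes, *Spp1*, *Postn* and *Il13ra2* among them. Of calls at an unadjusted p below 0.05, 43.5% were higher in edgeR and 49.1% in DESeq2. Leaving out each mouse gave 673 to 1249 genes higher and 773 to 1479 lower at an unadjusted p below 0.05, and 844 to 1479 higher and 806 to 1610 lower without overlap, which fewer mice make easier. Of 686 alternative values of list medians, 676 lay within the spread between mice. With 1 mouse left out the medians ran from −0.92 to −0.51 for CC chemokines, −0.67 to −0.33 for colony-stimulating factors and −0.28 to −0.032 for glycolysis. Of 172 named genes, 64 passed under DESeq2, and 14 changed sign somewhere. With 1 mouse left out, log2 fold changes ran from −0.029 to 0.56 for *Prg4*, −0.92 to 0.15 for *Irf7*, −0.57 to 0.23 for *Isg15*, −0.70 to 0.022 for *Ifit3*, −0.36 to 0.66 for *Rsad2*, −0.071 to 0.49 for *Cxcl9*, −0.57 to 0.46 for *Cxcl10*, −0.69 to 0.021 for *Il6*, −0.033 to 0.19 for *Pcna*, −0.036 to 0.31 for *Cdkn1c*, −0.012 to 0.13 for *Cox4i1*, −0.026 to 0.25 for *Acadm* and −0.15 to 0.033 for *Ldha*. The causes were not tested.

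Replicate numbers are shared by the groups but did not pair the mice: deviations of same-numbered SHAM and Laminectomy mice correlated at 0.13, −0.13, 0.33 and −0.13. With the replicate block 0 genes were called (smallest adjusted p 0.0605), and *Cxcl10* at −0.055 and *S100a8* at −0.24 changed sign on the log2 scale.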
